A study of Mus musculus with 8 samples.

Results

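The genes described here are 10 members of the bone morphogenetic protein (BMP) pathway, chosen by name from the 31732 gene symbols on the array: the ligands Bmp2, Bmp4 and Bmp6, the secreted antagonists Nog, Grem1 and Fst, and the receptors Bmpr1a, Bmpr1b, Bmpr2 and Acvr1. They were read on 13 probes. Of the 10 genes, 9 were well above background on at least 4 of the 8 arrays and were tested with 19655 genes in all, and Bmp6 was not tested. The cells were satellite cells, which are the resident stem cells of muscle, from the extensor digitorum longus (EDL, a fast hindlimb muscle) of Dnmt3a-KO mice, which lack the de novo DNA methyltransferase Dnmt3a, and of wild-type (WT) littermates matched for age and sex. The mice were male and 8 weeks old per the labels. Cells of both genotypes spent 5 days in growth medium, were replated at matched cell number and then differentiated for 2, 4, 5 or 6 days, with 1 array per genotype and day. The sources used here give neither the promoter of a Cre nor the deleted exons, the number of mice per array, or whether the days are separate cultures, so the p-values measure the spread between these arrays, which may be technical.

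BMP ligands are secreted proteins of the TGF-beta family. They bind a complex of type I receptors (Bmpr1a, Bmpr1b and Acvr1) and type II receptors (Bmpr2), which phosphorylates Smad1, Smad5 and Smad9, and these with Smad4 switch on targets such as the Id genes. Noggin and gremlin hold the ligands outside the cell, and follistatin binds activins and myostatin as well as some BMPs. In muscle, BMP signalling is known to keep satellite cell progeny dividing and to delay their differentiation, and BMP2 can turn cultured myoblasts towards an osteoblast fate.

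Signals are given in signal units, in which 100 is the 75th percentile of the non-control spots of that array, so a value compares 1 probe between arrays and not 1 gene with another. An array had 61.6% to 67.4% of its 43020 non-control spots well above background, and the number of arrays limits the precision. Dnmt3a itself read 24.0, 52.5, 54.2 and 38.9 units in the Dnmt3a-KO arrays of days 2, 4, 5 and 6, against 51.9, 265.3, 249.8 and 203.5 units in WT cells, and was lower in Dnmt3a-KO cells on each day. The sources used here do not say whether its probe lies in the deleted stretch. The day 2 arrays stood apart: they shared a slide, were scanned on a G2505C scanner and were extracted with another software version, and only these 2 arrays had signal above background for Uty, Kdm5d, Eif2s3y and Ddx3y, genes of the Y chromosome. Xist passed the background call on the other 6 alone, although the labels call all mice male. The genotype differences and slopes of the members, and the medians of the other lists, are therefore given with and without day 2. Of the 10 myogenic markers listed 8 were measured, of which 7 were well above background on all 8 arrays, and Myf5 was not above background on any. The summed signal of the 8 measured markers was 21026 to 26197 units in Dnmt3a-KO cells and 22052 to 25377 units in WT cells.

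The probe sequences below identify the transcripts on which the results turn. Bmp2 showed the largest genotype difference of the 9 tested genes, Bmpr1b was read by a pair of probes that moved the same way, and the probes of Acvr1 parted over the days. The first 30 of the 60 bases of each probe are printed. Positions are on mm9, the build named in the array files, and without an annotation of that build no probe could be assigned to an exon or untranslated region. The Bmp2 probe lies at chr2:133388260-133388319 on the plus strand. The Bmpr1b probes lie on the minus strand at chr3:141503374-141503433 (probe 1) and chr3:141500694-141500753 (probe 2), and the Acvr1 probes on the minus strand at chr2:58298937-58298996 (probe 1) and chr2:58299580-58299639 (probe 2).
Bmp2: cccttccagggggctgatctggccaaagta
Bmpr1b probe 1: atcatggctttctgaggaggagaaactgtt
Bmpr1b probe 2: atttatggaagcatgtacattgtgaactcc
Acvr1 probe 1: acgctgtggggggaaatgcatcttcttcgg
Acvr1 probe 2: attaagacagtggctctctgcgtatctttc

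Dnmt3a methylates cytosines followed by guanine, and the promoters of the members differ in how many such CG pairs they hold. Of the 10 genes, 7 matched a promoter window in the RefSeq table (GRCm38.p6), 250 bases before to 50 after a transcript start, and they had 9 windows among 32851. The letters CG were found in 94.6% of all windows, with a median of 7 per window, each window being read on the gene's strand, and CG reads the same on both. Acvr1 had 51, Bmpr1a 48, Grem1 28, Bmp6 27, Bmpr2 23 and Bmp4 12, and the windows of Bmpr1b had 5 to 6. A window with at least 48 was found for 1.22% of all windows, and 47.9% held at most 6. A window of Bmpr1a, with many CG pairs, and a window of Bmpr1b, with few, are printed with CG in capitals, Bmpr1a from chr14:34502497-34502796 and Bmpr1b from chr3:141931371-141931670, both on the minus strand. The arrays measured RNA and no methylation, so these letters describe the windows and carry no reading of the signals.
Bmpr1a: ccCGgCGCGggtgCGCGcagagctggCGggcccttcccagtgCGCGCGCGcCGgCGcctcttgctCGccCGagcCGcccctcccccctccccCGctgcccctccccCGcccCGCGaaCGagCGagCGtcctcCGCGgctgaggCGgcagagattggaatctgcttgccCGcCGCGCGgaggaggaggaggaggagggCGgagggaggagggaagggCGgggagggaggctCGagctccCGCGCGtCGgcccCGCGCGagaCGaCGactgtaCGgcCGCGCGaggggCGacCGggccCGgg
Bmpr1b: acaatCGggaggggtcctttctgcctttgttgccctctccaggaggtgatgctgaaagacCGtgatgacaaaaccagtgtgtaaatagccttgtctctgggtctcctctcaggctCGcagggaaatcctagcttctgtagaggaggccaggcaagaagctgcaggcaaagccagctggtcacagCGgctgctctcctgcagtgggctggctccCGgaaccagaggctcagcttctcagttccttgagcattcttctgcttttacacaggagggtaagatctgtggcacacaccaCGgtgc

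The first comparison asked which of the 10 genes differed between Dnmt3a-KO and WT cells. Bmp2 was brighter in Dnmt3a-KO cells on each of the 4 days, by a mean of 2.00-fold. Bmpr1b was dimmer on each day by either probe. Neither difference passed the threshold over all genes, and none of the 9 tested members did (limma adjusted p under 0.05, with day as a block), where 0.0102% of the genes tested were called. Before adjustment, Bmp2 and Bmpr1b were under 0.05, as were 12.9% of all genes.

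Among the ligands, Bmp2 is the BMP best known for inducing bone. Its probe read 21.8, 121.3, 84.9 and 102.3 units in Dnmt3a-KO cells on days 2, 4, 5 and 6, against 9.95, 49.9, 58.7 and 49.4 units in WT cells. Within days 4 to 6 every Dnmt3a-KO array was above every WT array, while over the 4 days the groups overlapped because the Dnmt3a-KO array of day 2 lay below the later WT arrays. Over the 4 days the groups were apart for 0 of the 9 members and for 1.71% of all genes. Of all genes tested, 7.51% had their Dnmt3a-KO arrays above their WT arrays within days 4 to 6 in the same way. The log2 difference, Dnmt3a-KO minus WT, was 1.13, 1.28, 0.53 and 1.05 on the 4 days. It averaged 0.999 ± 0.325 (SD over 4 days, with 4 arrays per genotype), with a 95% interval of 0.65 to 1.35 (limma adjusted p = 0.11). Higher signal in Dnmt3a-KO cells on all 4 days was seen for 10.9% of genes tested, a mean difference at least as large with that on 4 of 4 days for 0.326%, and a p at most that of Bmp2 for 0.595%. Without day 2 the mean difference was 0.95 (limma adjusted p = 0.23). The 5 bone and cartilage markers measured summed to 93.0, 53.0, 73.5 and 53.6 units in Dnmt3a-KO cells on the 4 days and to 74.0, 60.8, 62.8 and 62.1 units in WT cells, with the knockout the higher one on days 2 and 5 alone. This sum is carried by Sox9, the brightest of the 5 (mean log2 difference -0.03). Single markers went both ways, from -0.71 for Col2a1 to 0.89 for Sp7, both dim and well above background on 5 of the 8 arrays. With an intensity trend and robust variances in limma, Bmp2 passed the threshold (adjusted p = 0.046), where 93 genes did.

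**Figure D1:**
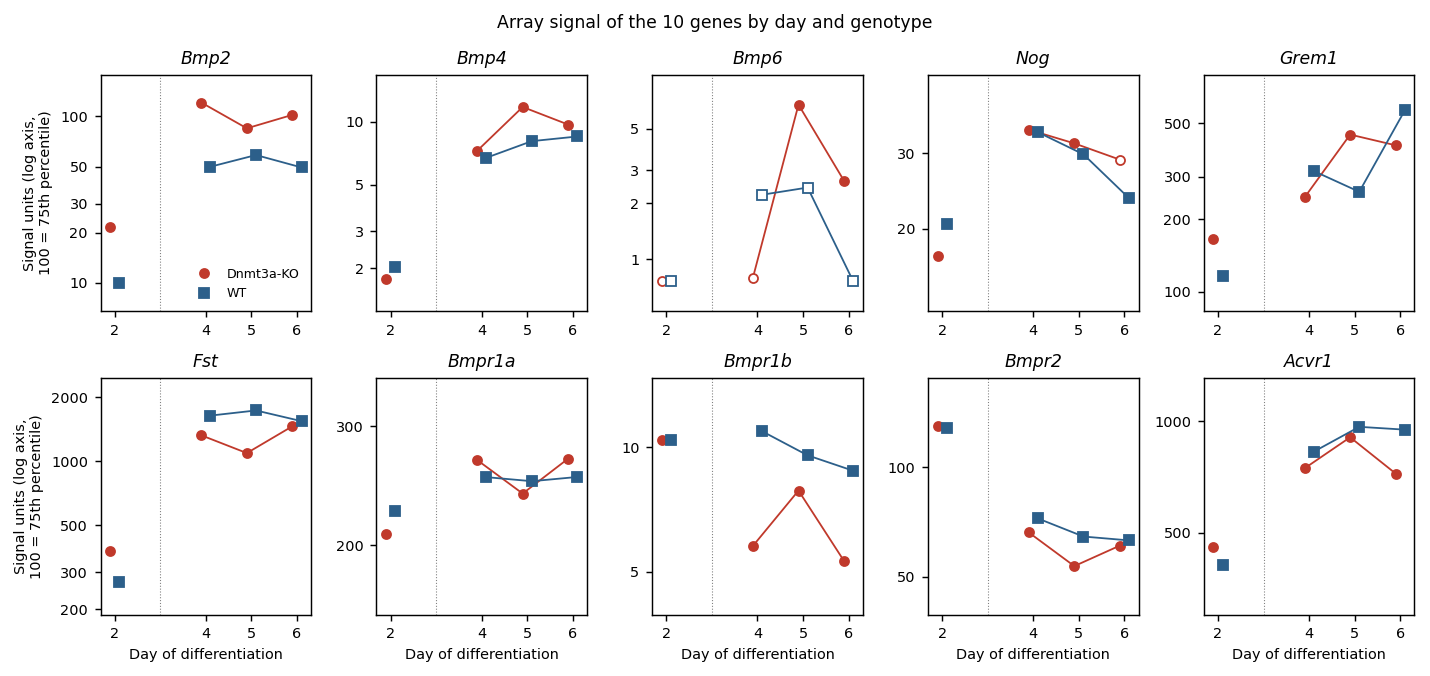
Signal of each of the 10 genes (signal units, log axis, 100 = the array's 75th percentile) against day of differentiation, for Dnmt3a-KO (red circles, drawn slightly to the left) and WT (blue squares), 1 array per point. Open symbols were not well above background, the dotted line parts the day 2 arrays from the others, and Bmp2 reads 84.9 to 121.3 units in Dnmt3a-KO cells on days 4 to 6, above 49.4 to 58.7 units in WT cells.

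Bmp4, a ligand of the same subgroup as Bmp2, was dim. It read 1.78, 7.26, 11.8 and 9.69 units in Dnmt3a-KO cells on days 2, 4, 5 and 6, against 2.02, 6.72, 8.08 and 8.50 units in WT cells. The genotypes overlapped, with the Dnmt3a-KO array lower on day 2 and higher on the other 3 days. The log2 difference averaged 0.16 ± 0.30 (SD over 4 days, 95% interval -0.17 to 0.49, limma adjusted p = 0.62). A second Bmp4 probe, with 15% G and C against 38.3% in the first, was not well above background on any array.

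Bmp6, a ligand that can signal through Acvr1, was at the limit of the array. Its signal passed the background call on 2 of the 4 Dnmt3a-KO arrays and on 0 of the 4 WT arrays. On day 5 it read 6.73 units in Dnmt3a-KO cells and 2.42 units in WT cells, which was not well above background, and was at least 2.78-fold higher in Dnmt3a-KO cells. On day 6 it read 2.63 units in Dnmt3a-KO cells and 0.719 in WT cells and was at least 2.25-fold higher by the bound used here. That bound is not strict, since brighter probes of the same WT array, such as that of Cidec at 1.53 units, also failed the background call. On day 4 Bmp6 read lower in Dnmt3a-KO cells, at 0.798 units against 2.22 units in WT cells. On days 2 and 4 neither array was well above background, so no fold is given, and with 1 array per genotype and day these differences have no test.

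The antagonists showed no common direction. Noggin (Nog) is the antagonist that blocks the receptor-binding faces of the ligand. It read 17.3, 34.1, 31.7 and 29.0 units in Dnmt3a-KO cells on days 2, 4, 5 and 6, against 20.5, 33.6, 29.8 and 23.6 units in WT cells. The arrays of the 2 genotypes interleaved, and the Dnmt3a-KO array of day 6 was not called well above background at its 29.0 units. Its log2 difference averaged 0.04 ± 0.22 (SD over 4 days, limma adjusted p = 0.89).

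Grem1, an antagonist also known as a product of stromal fibroblasts, differed in sign between days. It read 165, 246, 448 and 404 units in Dnmt3a-KO cells, against 117, 316, 259 and 565 units in WT cells. The Dnmt3a-KO array was the brighter one on days 2 and 5 and the dimmer one on days 4 and 6. Its log2 differences of 0.50, -0.36, 0.79 and -0.48 averaged 0.11 ± 0.63 (SD over 4 days, limma adjusted p = 0.87), the largest SD among the 9 genes tested. The summed signal of the 9 fibro-adipogenic and fibroblast markers was 648, 846, 4240 and 1356 units in Dnmt3a-KO cells on days 2, 4, 5 and 6, against 695, 2104, 3552 and 2490 units in WT cells. Of these markers 5 were well above background on all 8 arrays, and Lum and Dpt were on none. The log2 ratio of the sums, Dnmt3a-KO over WT, was -0.10, -1.31, 0.26 and -0.88, with the sign of the Grem1 difference on days 4, 5 and 6 and the opposite sign on day 2. The sum is carried by bright members such as Col3a1, 499 of the 648 units of the Dnmt3a-KO array of day 2. The median difference of the 7 markers tested, which weights them equally, was 0.17, -0.36, 0.31 and -0.58 on the 4 days. It had the sign of the Grem1 difference on each, while single markers went both ways (day 2: Col1a1 2.25, Col3a1 -0.27). This match was not particular to fibroblast markers. By the median, the 2 adipocyte markers tested had the sign of the Grem1 difference on each day (0.04, -0.57, 1.24 and -0.97). The macrophage and leukocyte median did not on day 5 (-0.03), nor the bone and cartilage median on day 6 (0.11). By the sum, all of these lists had that sign on each day. Some sums were near level, with log2 ratios of -0.004 for adipocyte on day 4 and 0.01 for macrophage and leukocyte on day 5. Of the 4 adipocyte markers, 0 were well above background on all 8 arrays. The myogenic, endothelial, smooth muscle and pericyte, and Schwann cell markers did not have that sign on each day by either measure. The part of any of these cell types in the Grem1 signal was not tested, and in bulk RNA fewer cells of a type and less RNA per cell cannot be told apart.

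Follistatin (Fst) is known in muscle as a factor that favours myoblast fusion. Its probe read 379, 1325, 1093 and 1462 units in Dnmt3a-KO cells on days 2, 4, 5 and 6, against 270.1, 1641, 1736 and 1545 units in WT cells. Within days 4 to 6 every Dnmt3a-KO array was below every WT array, as for 8.26% of all genes tested, and on day 2 the Dnmt3a-KO array was the brighter one. The log2 difference of Fst averaged -0.14 ± 0.48 (SD over 4 days, limma adjusted p = 0.78), and -0.35 without day 2 (adjusted p = 0.41).

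Among the receptors, Bmpr1b is a type I receptor known for its preference for Gdf5. Its first probe read 10.4, 5.77, 7.86 and 5.31 units in Dnmt3a-KO cells on days 2, 4, 5 and 6, against 10.4, 10.9, 9.57 and 8.78 units in WT cells. The arrays of day 2 were level. Within days 4 to 6 all Dnmt3a-KO arrays lay below all WT arrays by this probe, as for 8.26% of all genes tested. The log2 differences of -0.01, -0.92, -0.28 and -0.73 averaged -0.48 ± 0.42 (SD over 4 days, 95% interval -0.92 to -0.05, limma adjusted p = 0.36). The second probe gave -0.03, -0.45, -0.58 and -0.41, with a mean of -0.37 ± 0.24 (limma adjusted p = 0.32). Both probes were thus lower in Dnmt3a-KO cells on 4 of 4 days, though hardly on day 2, and 11.5% of genes were lower on 4 of 4 days. They differed in which of days 4 to 6 showed the largest difference. By the second probe the genotypes overlapped within days 4 to 6. It read 4.29, 4.51 and 3.13 units in Dnmt3a-KO cells, against 5.87, 6.73 and 4.15 units in WT cells. Without day 2 the first probe's mean was -0.64 (limma adjusted p = 0.28). The summed fibroblast markers also read lower on days 4 and 6 in the knockout, with log2 ratios of -1.31 and -0.88, and higher on day 5 (0.26), and their part in the Bmpr1b signal was not tested. Single markers went both ways: on day 4 the difference was -2.49 for Col1a1 and -1.64 for Col3a1 but 0.87 for Dcn and 0.43 for Cd34, and on day 6 it was -1.26 for Col1a1 and 1.01 for Ly6a. With normexp background correction the Bmpr1b difference was -0.14 (limma adjusted p = 0.38).

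**Figure D2:**
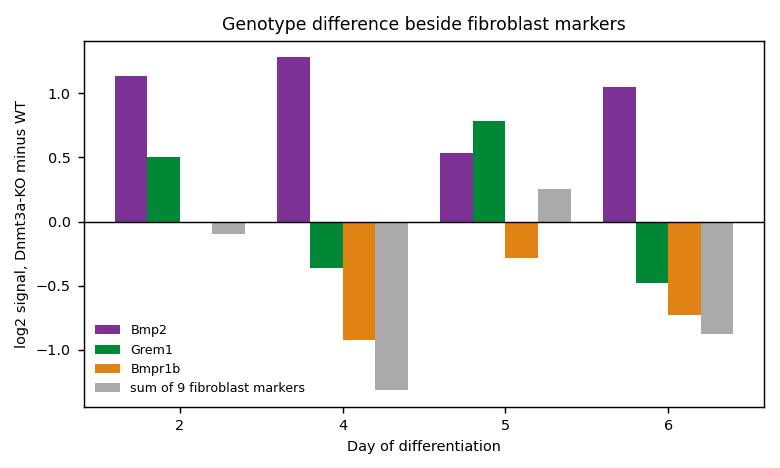
Log2 difference, Dnmt3a-KO minus WT, on each day of differentiation for Bmp2, Grem1 and Bmpr1b, and for the summed signal of 9 fibroblast markers (grey), 1 array per genotype and day. The marker sum of the Dnmt3a-KO array is the lower one on days 2, 4 and 6 (log2 -0.10, -1.31 and -0.88) and higher on day 5 (0.26). Bmp2 is positive on each day, and Bmpr1b is near 0 on day 2 (-0.01) and negative on days 4, 5 and 6.

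Bmpr1a, the widely expressed type I receptor, gave the smallest difference of the 9 genes. It read 208, 268, 239 and 269 units in Dnmt3a-KO cells on days 2, 4, 5 and 6, against 225, 252, 249 and 253 units in WT cells. All 8 arrays lay close together, and the mean log2 difference of 0.00 ± 0.10 (SD over 4 days) had a 95% interval of -0.18 to 0.18 (limma adjusted p = 0.997). Bmpr2, the type II receptor, read 129.6, 66.1, 53.5 and 60.9 units in Dnmt3a-KO cells, against 128.2, 72.3, 64.5 and 62.9 units in WT cells. The Dnmt3a-KO array was the lower one on days 4, 5 and 6, with ranges that overlap. The mean difference was -0.11 ± 0.12 (SD over 4 days, 95% interval -0.30 to 0.09, limma adjusted p = 0.59).

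Acvr1 is the type I receptor whose activating mutations cause heritable bone formation in human muscle. Its first probe read 457, 746, 905 and 722 units in Dnmt3a-KO cells on days 2, 4, 5 and 6, against 408, 827, 966 and 949 units in WT cells. The Dnmt3a-KO array was brighter on day 2 and dimmer on the other 3 days. By this probe the log2 difference averaged -0.12 ± 0.23 (SD over 4 days, limma adjusted p = 0.67), and -0.11 ± 0.16 by the second probe (adjusted p = 0.63). With the day 2 arrays left out, the mean differences of the genes not yet given in this way were 0.28 for Bmp4, 0.13 for Nog, -0.02 for Grem1, 0.04 for Bmpr1a, -0.15 for Bmpr2 and -0.21 for Acvr1. None of these passed, with limma adjusted p from 0.42 for Bmp4 to 0.98 for Grem1. For 5 of the 9 members (Bmp4, Nog, Fst, Bmpr2 and Acvr1) the difference on day 2 had the opposite sign to those of all 3 later days, as for 15.4% of all genes, and the second Acvr1 probe did not share this, being positive on day 5 as well (0.03).

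**Figure D3:**
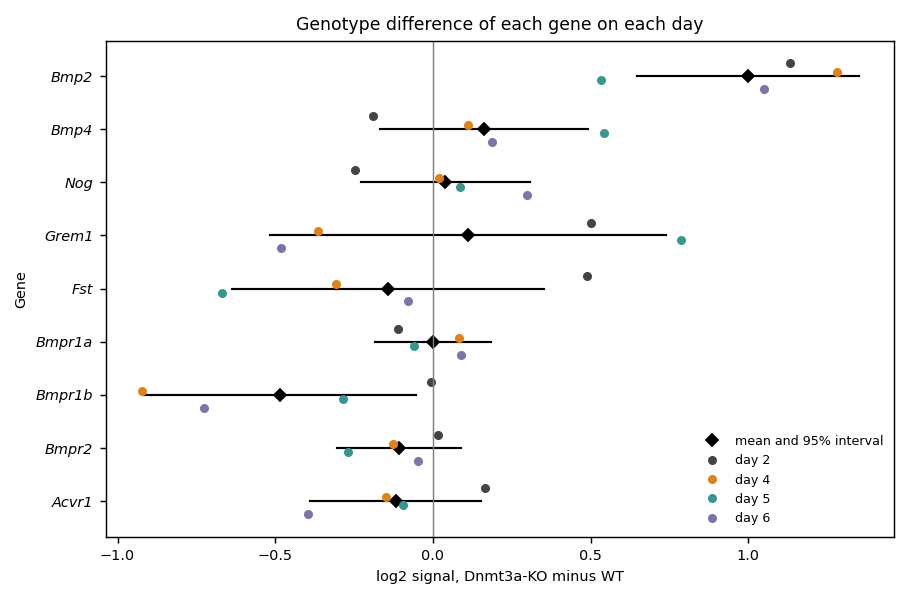
Log2 signal difference, Dnmt3a-KO minus WT, of the 9 tested genes: coloured points are the 4 days (1 array per genotype each), black diamonds the mean and black lines its 95% interval from limma. The interval lies above 0 for Bmp2 (0.65 to 1.35) and below 0 for Bmpr1b (-0.92 to -0.05), and holds 0 for the other 7.

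Counting 2-fold differences whose brighter array passed the background call, Bmp2 was counted on days 2, 4 and 6 and no other tested member on any day. Of all genes tested, 1.89% were at least 2-fold higher in Dnmt3a-KO cells on day 2, and on the 3 later days the shares were 1.46%, 0.916% and 1.3%. The shares at least 2-fold lower over the 4 days were 1.14%, 3.07%, 1.82% and 1.88%. At 1.5-fold the count was 7, with Grem1 on day 5 higher in Dnmt3a-KO cells, Fst on day 5 lower, and Bmpr1b on days 4 and 6 lower. That is 4 differences higher and 3 lower among the 9 members on 4 days, and over all genes and days 4.43% were higher and 5.92% lower by this measure.

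The second comparison followed the genes over differentiation. Over days 2 to 6 the slope of log2 signal against day, fitted with a term for genotype, was positive for 5 of the 9 members (Bmp4, Bmp2, Fst, Grem1 and Acvr1) and negative for 1 (Bmpr2) at a limma adjusted p under 0.05, against 25.9% of genes with a positive and 19.5% with a negative slope. Since 45.4% of all genes passed, the count is to be read against that share. The ligands had the steepest slopes of the 9 in this fit, 0.60 per day for Bmp4 (95% interval 0.37 to 0.83, adjusted p = 0.011) and 0.58 for Bmp2 (0.25 to 0.91, adjusted p = 0.018). With normexp background correction the order differed, at 0.12 for Bmp4, 0.34 for Bmp2, 0.39 for Grem1 and 0.49 for Fst, all past the threshold in limma, and the mean of both Bmp4 probes gave 0.30. Fst had 0.56 per day (adjusted p = 0.016) and Grem1 0.44 (adjusted p = 0.011), both antagonists, while Nog at 0.13 did not pass (adjusted p = 0.18). Of the receptors, Acvr1 had 0.26 per day (adjusted p = 0.018) and Bmpr2 -0.28 (adjusted p = 0.013), and Bmpr1a (0.06) and Bmpr1b (-0.13) did not pass (adjusted p = 0.16 and 0.096). With array weights in limma all 9 members passed, Bmpr1a (adjusted p = 0.040), Bmpr1b (0.018) and Nog (0.012) included, and Bmpr1a passed with normexp as well (0.037). The second Acvr1 probe had a slope of -0.07 (adjusted p = 0.17), so the Acvr1 slope holds for 1 of its 2 probes.

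These slopes rested on day 2. Without day 5 none of the 6 members passed either, with slopes of the same sign and limma adjusted p from 0.052 for Grem1 to 0.073 for Acvr1. The mean of days 4 to 6 stood above day 2 by 4.67-fold in Dnmt3a-KO cells and 5.28-fold in WT cells for Bmp2, and by 5.29-fold in Dnmt3a-KO cells and 3.82-fold in WT cells for Bmp4. Fst stood 3.39-fold above day 2 in Dnmt3a-KO cells and 6.07-fold in WT cells, and Grem1 2.15-fold in Dnmt3a-KO cells and 3.08-fold in WT cells. These 4 were at least 2-fold above day 2 in both genotypes, as were 12.6% of all genes tested, and 0 of the 9 were at least 2-fold below it in both, as were 8.65%. Bmpr2 was 2.16-fold brighter on day 2 than later in Dnmt3a-KO cells and 1.93-fold in WT cells.

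Over days 4 to 6 alone no member had a slope past the threshold, and neither did any other gene (0% of genes, limma), with 8% of genes at an unadjusted p under 0.05. Bmp2 then had -0.07 per day (95% interval -0.32 to 0.19, adjusted p = 0.89), Bmp4 0.19 (-0.07 to 0.45, adjusted p = 0.69) and Fst 0.01 (-0.20 to 0.23, adjusted p = 0.98). Grem1 kept a slope of similar size, 0.39 per day with a wider interval (-0.03 to 0.80, adjusted p = 0.64). Nog had -0.19 per day (-0.33 to -0.04, limma adjusted p = 0.58), the one member whose interval over these days leaves out 0. The receptors had -0.08 for Bmpr2, 0.04 for Acvr1, 0.002 for Bmpr1a and -0.11 for Bmpr1b (limma adjusted p from 0.80 for Bmpr2 to 0.996 for Bmpr1a). Day 2 against the later days cannot be told apart from slide, scanner, software version and the difference in sex-linked transcripts.

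**Figure D4:**
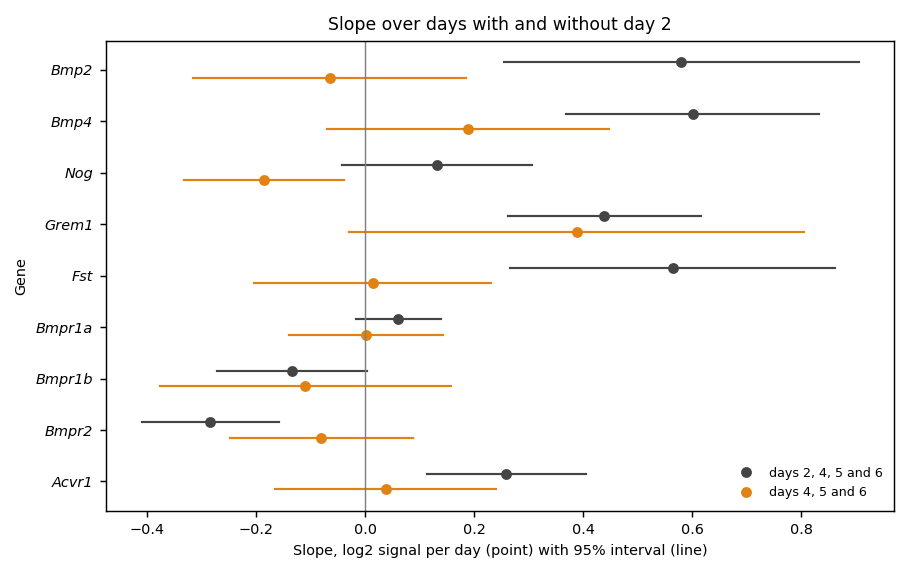
Slope of log2 signal per day of the 9 tested genes over days 2, 4, 5 and 6 (dark, 8 arrays) and over days 4, 5 and 6 (orange, 6 arrays), points with 95% intervals from limma and genotype as a covariate. The slope of Bmp2 is 0.58 with day 2 and -0.07 without it, and that of Grem1 is 0.44 and 0.39.

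A further comparison asked whether the slope differed between genotypes. None of the 9 members and none of the 19655 genes (0%) passed in limma, with 1.11% of genes at an unadjusted p under 0.05. The unadjusted p of the members ran from 0.26 for Bmpr1b to 0.82 for Bmp2.

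The rest of the pathway was read from lists of the other known genes. No gene of these lists passed the genotype test, and the median difference over all genes was -0.01. Of 11 other ligands 5 were tested, all with a positive mean difference (median 0.39), from 0.01 for Bmp8a to 2.40 for Gdf5, a ligand of joints and tendons known to act through Bmpr1b (2.40 ± 0.50, SD over 4 days, limma adjusted p = 0.066). Of 13 other antagonists 8 were tested, with a median of 0.05, and the lowest was -0.57 for Fstl1, a secreted follistatin-like protein. Of 10 other receptors and co-receptors 8 were tested, with a median of 0.05, from -0.62 for Acvrl1, the endothelial type I receptor, to 0.40 for Acvr2b, a type II receptor of activins and myostatin.

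Inside the cell, the 8 Smads and regulators were all tested, with a median of 0.06, from -0.21 for Smurf2, a ubiquitin ligase, to 0.43 for Smad9, a BMP-activated Smad that was higher in Dnmt3a-KO cells on 4 of 4 days (limma adjusted p = 0.30). The 4 Id genes, the classic BMP targets, had a median of 0.22, from -0.14 for Id3 to 0.38 for Id4. The Id median was 0.36 on day 2 and -0.16, -0.13 and -0.002 on days 4, 5 and 6, and without day 2 it was -0.12. The single Id genes then went both ways, with Id3 at -0.26, Id4 at -0.15, Id1 at -0.08 and Id2 at 0.42. Id2 was higher in Dnmt3a-KO cells on 4 of 4 days, as were 10.9% of genes tested (mean 0.38, limma adjusted p = 0.23). Without day 2 the medians of the other lists were 0.16 for the ligands, -0.11 for the antagonists, 0.01 for the receptors and 0.05 for the Smads and regulators, against -0.02 over all genes. With day, 4 of the tested other ligands had a positive slope and 1 a negative one past the threshold, 4 and 1 of the other antagonists, 2 and 3 of the other receptors, 4 and 1 of the Smads and regulators, and 0 and 1 of the Id genes. Over all genes tested, 25.9% had a positive and 19.5% a negative slope past the threshold. No gene of these lists passed over days 4 to 6, as for 0% of all genes.

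Genes whose log2 signal ran most like a member over the 8 arrays were named for the 3 members with the largest SD over the arrays. Spsb1 (r = 0.996), Bbs4 (0.993) and Slc44a1 (0.993) ran most like Bmp2. Gpd1l (0.997), Rtl8c (0.996) and Rplp0 (0.995) ran most like Fst, and Klrg2 (0.996), Capn2 (0.995) and Dis3l (0.994) most like Bmp4. All points share the step between day 2 and the later arrays, and these correlations are given as a description.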

How the data were processed

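RNA of cultured satellite cells was measured on 8 one-colour Agilent arrays, 1 per genotype and day. Spot intensity, per the file headers, came from Feature Extraction 11.0.1.1 for day 2 and 9.5.3.1 for the other days, on build mm9, and the submitters' processing notes name version 9.5. The deposited score per spot equals the processed intensity times 100 over the 75th percentile of all spots, with negative values at 0 and rounded (largest difference 0.5, column medians 6 to 7). It was an alternative.

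Here the processed intensity was scaled to the 75th percentile of the 43020 non-control spots of its array, floored at 0.763 units (the dimmest scaled signal to pass the background call) and taken to log2. Outlier spots were dropped, spots of a probe averaged (members have 1 spot per probe), and 273 of 39429 probes left out. Symbols were updated for 3358 probes among 26055 matched to RefSeq by accession. Each gene was read on its brightest probe and tested if at least 4 of 8 arrays were well above background. A probe not above background in 1 group gives a bound (at least N-fold), against its own signal or, if higher, the dimmest signal of that array that passed the background call. Some brighter probes fail the call, so this bound is not strict.

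limma 3.58.1 in R 4.3.3 (two-sided, Benjamini-Hochberg, threshold 0.05) gave the genotype effect with day as a block (3 residual degrees of freedom), the slope per day with genotype as a covariate (5, or 3 over days 4 to 6) and their interaction (4). The block also takes out the slide (day 2 on one, days 4 and 5 on another, day 6 on the third). The steps were tested on simulated data. All 10 members are described, the other pathway genes are given by list with the highest and lowest mean difference named (1 such gene is not reported here), and likeness was Pearson's r. The members and lists were chosen with earlier results of these data known. Alternatives were the scaling, background, filter, probe choice, deposited score, variance model, array weights, blocks, fold and each day left out in turn. Normexp (offset 50) ran on the median signal.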

Additional observations from a re-analysis of the deposited data

Results flagged for a closer look

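In WT cells the day 2 array lay far from the other 3 arrays for 4 members, by its distance to the nearest array as a share of the range on the log2 scale. The day 2 WT signals were 9.95 units for Bmp2 (share 0.903), 2.02 for Bmp4 (0.837), 270.1 for Fst (0.938) and 225 for Bmpr1a (0.876). Among 27 groups of 4 values examined, these 4 were found. The rate of about 1 in 20 for this rule assumes 4 like replicates. The values here are different days, with day 2 on another slide and scanner, so that rate does not apply. By this rule no Dnmt3a-KO array and no single day's genotype difference stood out. Day 2 was nonetheless apart from the later days in Dnmt3a-KO cells too. There the mean of days 4 to 6 stood above day 2 by 4.67-fold for Bmp2, 5.29-fold for Bmp4 and 3.39-fold for Fst. In WT cells it did so by 5.28-fold, 3.82-fold and 6.07-fold.

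The genotype difference had the opposite sign on day 2 from all of days 4, 5 and 6 for 5 members. The day 2 log2 differences, Dnmt3a-KO minus WT, were -0.19 for Bmp4 and -0.25 for Nog, with positive differences later, and 0.49 for Fst, 0.0157 for Bmpr2 and 0.16 for Acvr1, with negative differences later. The second Acvr1 probe had a positive difference on day 5 as well (0.03), so there the pattern holds for 1 of 2 probes. Of all genes tested, 15.4% showed such a pattern. The difference between day 2 and the later days was not tested, and day 2 also differs in slide, scanner, software version and sex-linked transcripts.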

How the results depend on the processing

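Over the alternatives run, the genotype difference of Bmp2 stayed positive, between 0.63 and 1.15 on the log2 scale, with limma adjusted p of 0.046 to 0.39 in the fits with a block and 0.9999 in that without a day block. It passed the threshold only with an intensity trend and robust variances, where 1 member was called. The genotype calls over all genes, 2 here, were 0 with quantile normalization, without a filter, with the mean of all probes, with the deposited score and with no day block, 8 with every probe on its own, 14 with array weights, 19 with slide as the block, 36 with normexp, 38 for genes above background on all 8 arrays, 93 with the trend and robust variances, 128 with day as a random block, and 0 to 3 with a day left out. Signs turned where differences were near 0: Bmpr1a (-0.0020) and Nog (-0.013) under normexp and Grem1 (-0.0035) with array weights. Leaving out a day gave -0.11 to 0.31 for Grem1, -0.029 to 0.038 for Bmpr1a, -0.35 to 0.033 for Fst and -0.047 to 0.13 for Nog.

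The day slope was called for 8920 genes and 6 members. Leaving out a day gave 0 to 9863 genes and 0 to 7 members, with 0 members without day 2 and also without day 5 (391 genes). Array weights called 13169 genes and all 9 members. Over days 4 to 6 and with slide as a block, 0 genes and 0 members were called. With slide as a block, days 2 and 6 each sit alone on their slide. The slope then rests on days 4 and 5 alone and does not bear on the slope over days 2 to 6. Slopes turned sign over days 4 to 6 for Bmp2 (-0.065) and Nog (-0.19), and with slide as a block for Bmpr1a (-0.092), Bmp2 (-0.14), Fst (-0.10), Bmpr1b (0.13) and Nog (-0.14). Leaving out a day gave -0.065 to 0.82 for Bmp2 and -0.19 to 0.26 for Nog. Under normexp the slope of Bmp4 was 0.12 and the genotype difference of Bmpr1b -0.14. The slope of Acvr1 missed the threshold with the mean of its probes (0.09, adjusted p = 0.12). The genotype by day interaction had 0 calls in each fit run. Day differences of members were 3 at 2-fold and 7 at 1.5-fold. The cause of these changes was not tested. The genotype fit pairs the arrays by day through its block, and replicate numbers, which only name arrays, gave no other pairing. Signal near background limits Bmp6, Bmp4 and Bmpr1b.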
